A study of Mus musculus with 8 samples.

Results

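The erythroid genes and haemoglobins described here are 8 listed genes: Car1, Car2, Slc4a1, Alas2, Klf1, Ahsp, Hba-a1 and Hbb-b1. A probe was taken for a gene where the RefSeq accession in the array files mapped to the gene's symbol or a synonym, which gave 7 of the 55681 non-control probes and 6 of the 8 genes. All 6 (Hba-a1, Alas2, Slc4a1, Klf1, Car1 and Car2) were bright enough to be tested, among 16377 named genes that were. No probe carried the accession of Hbb-b1, so beta globin is described through its neighbours at the same locus, and Ahsp is not analysed here.

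The arrays were hybridised with Cy3-labelled cRNA from 8 tumours grown from 4T1, a carcinoma line of the mouse mammary gland. In culture the cells had received empty adenovirus (control, 4 tumours) or an adenovirus carrying PRH (4 tumours) for 24 h at a multiplicity of infection of 50, so that both groups carried adenovirus and only the tumour cells had been exposed to it. They were then placed in the number 3 fat pad of female BALB/C mice of 6 to 8 weeks, and tumours were collected 22 days later. The labels give each array a mouse number, 1, 2, 3 or 5, with 1 control and 1 PRH array for each number, and arrays are named here by group and mouse number.

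PRH is the protein of Hhex, a homeodomain transcription factor known from blood and blood vessel development. The Hhex probe stood at -0.54, -0.33, -0.69 and -0.78 in control 1, 2, 3 and 5 and at -1.71, -1.46, -1.79 and -1.72 in PRH 1, 2, 3 and 5. These are log2 levels, each relative to the 75th percentile of its own array, as are all levels below. Hhex was thus lower in the tumours labelled PRH (difference -1.09, SE 0.149, limma adjusted p = 0.00686), opposite to the label, and whether the probe lies in the part of Hhex that the adenovirus carried is not known here. The tumours are therefore called PRH-labelled throughout, and no direction below can be read as an effect of more PRH.

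All arrays lay on 1 slide, with the controls in slide column 2 and the PRH-labelled arrays in column 1, so that the effects of group and of slide column cannot be told apart. Arrays of the same mouse number shared a slide row, so mouse number and slide row cannot be told apart either. The 75th percentile of the signal was 1094 ± 131 in control and 722.4 ± 41.2 in PRH-labelled arrays (SD, n = 4 each, exact two-sided permutation p = 0.0286, the smallest this design allows). The label texts name both whole tumours and endothelial isolates as the source of the RNA. Carcinoma markers (9 of 9) and endothelial markers (12 of 12) were well above background on all 8 arrays. Across 34543 tested items (named genes and unnamed probes) the median difference was 0.29, and across the named genes it was -0.02.

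Red blood cells arise from erythroid precursors in bone marrow, spleen and fetal liver, and fill themselves with haemoglobin, a tetramer of alpha-like and beta-like globin chains that each hold a haem. Alas2 makes the first committed product of erythroid haem synthesis, Slc4a1 (band 3) exchanges chloride for bicarbonate across the red cell membrane, Car1 and Car2 are carbonic anhydrases that interconvert carbon dioxide and bicarbonate, and Klf1 is a zinc finger factor that activates globin and other erythroid genes through CACCC boxes. Young red cells that still hold RNA circulate in blood. In bulk RNA of this kind fewer cells of a type and less RNA per cell cannot be told apart.

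The promoters of 3 of the listed genes were in the RefSeq table used (build GRCm38.p6), and these are shown for that reason alone. Each run is the 250 bases before the annotated start of the gene, 5′ to 3′ on the gene's strand, and the capitals mark every GATAA (the core of the site of GATA factors) and every CACCC (the box read by Klf1 and related factors) on either strand, so that TTATC and GGGTG are capitals too. The windows lie on the plus strand at chr11:32283422-32283671 (Hba-a1), chrX:150547167-150547416 (Alas2) and chr8:84901732-84901981 (Klf1).
Hba-a1: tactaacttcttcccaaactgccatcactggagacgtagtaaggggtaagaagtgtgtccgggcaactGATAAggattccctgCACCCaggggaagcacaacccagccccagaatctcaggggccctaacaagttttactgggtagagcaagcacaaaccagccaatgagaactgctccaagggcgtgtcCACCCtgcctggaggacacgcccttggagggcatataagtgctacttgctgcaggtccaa
Alas2: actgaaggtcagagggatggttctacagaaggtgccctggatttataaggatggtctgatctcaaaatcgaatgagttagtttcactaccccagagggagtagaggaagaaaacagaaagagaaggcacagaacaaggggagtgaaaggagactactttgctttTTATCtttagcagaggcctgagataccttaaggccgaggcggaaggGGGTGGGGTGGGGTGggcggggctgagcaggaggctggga
Klf1: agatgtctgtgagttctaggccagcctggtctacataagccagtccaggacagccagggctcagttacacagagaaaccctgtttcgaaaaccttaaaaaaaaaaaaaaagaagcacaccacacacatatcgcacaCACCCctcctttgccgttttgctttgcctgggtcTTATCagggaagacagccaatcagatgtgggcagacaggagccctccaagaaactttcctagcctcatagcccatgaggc
Each of the 3 windows held 1 GATAA, 182 bases before the start in Hba-a1, 86 in Alas2 and 80 in Klf1. CACCC occurred 2 times in Hba-a1, 3 times in Alas2 and 1 time in Klf1. In Alas2 the 3 matches were read on the reverse strand 40, 35 and 30 bases before the start and adjoin each other. Among 32851 promoter windows of this length, 22.6% held GATAA and 52% held CACCC, so either match is common, and a match describes these letters and no binding.

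Of the 6 tested genes, Car1 alone passed the threshold, higher in PRH-labelled tumours, and none passed lower. Across all tested items 17.2% passed higher and 8.67% passed lower, so 1 of 6 is near that background. With the mouse number as a block in the model, 3 of the 6 passed higher (Car1, Slc4a1 and Klf1), against 26.9% of all items higher and 8.54% lower in that fit. Car1 was also the only one of the 6 whose groups did not overlap, which was so for 31.4% of all items. Among named genes alone 10.6% passed higher and 12.9% lower, or 15% and 12.4% with the block, and these shares are the background of the gene lists below. Hba-a1, Alas2 and Slc4a1 varied widely from tumour to tumour inside each group.

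**Figure D1:**
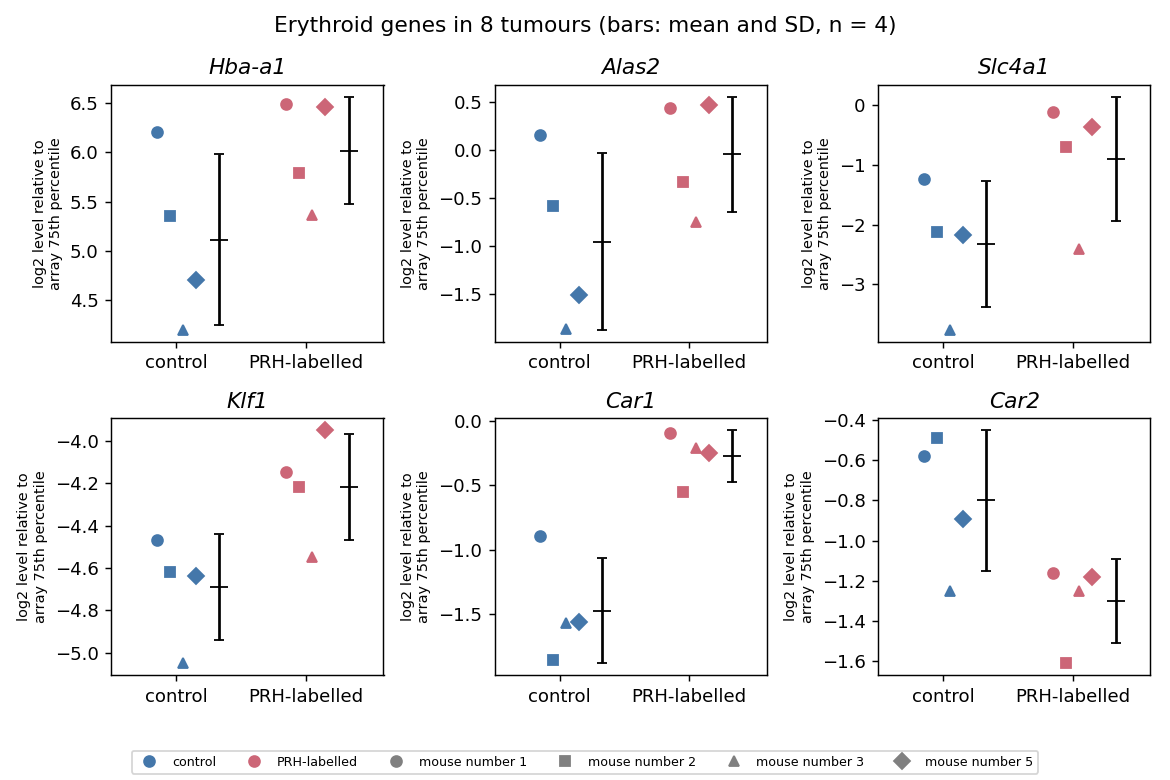
Log2 level relative to the array's 75th percentile (vertical axis) of the 6 tested erythroid genes in the control and PRH-labelled tumours. Each symbol is 1 tumour, its shape gives the mouse number, and the bars give the mean and SD of 4. Car1 separates the groups, while in the other 5 genes the groups overlap, and mouse number 3 is the lowest of its group for Hba-a1, Alas2, Slc4a1 and Klf1.

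Hba-a1 encodes an adult alpha globin chain. Its level was 6.21, 5.35, 4.19 and 4.70 in control 1, 2, 3 and 5 and 6.49, 5.79, 5.36 and 6.46 in PRH 1, 2, 3 and 5. Control 1 lay with the highest PRH-labelled tumours, control 3 and control 5 lay lowest, and the groups overlapped. The means were 5.11 ± 0.87 and 6.02 ± 0.55 (SD, n = 4 each), a difference of 0.91 (SE 0.467, limma adjusted p = 0.191). The difference within a mouse number was 0.29, 0.44, 1.17 and 1.76 for numbers 1, 2, 3 and 5, always in the same direction but unequal in size, and blocking on the mouse number gave an adjusted p of 0.0629. Without control 1 the difference was 1.28 and passed (adjusted p = 0.0471). Without any scaling between arrays it was 0.32, and the raw signals were 74000, 52300, 19700 and 26200 in control against 61200, 42000, 28500 and 66500 in PRH-labelled tumours.

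The globin loci held 14 listed genes, of which 11 had a probe and 10 were tested. In all 5 adult genes PRH 1 and PRH 5 were the highest tumours, control 1 came next, and control 5 and control 3 were the lowest. Hba-a2, the other adult alpha gene, ran at 7.0, 6.30, 5.33 and 5.73 in control and at 7.11, 6.70, 6.20 and 7.36 in PRH-labelled tumours (difference 0.75, SE 0.404, limma adjusted p = 0.21). Hbb-b2, an adult beta gene, ran at 3.95, 3.17, 2.27 and 2.35 in control and at 4.17, 3.42, 3.03 and 4.41 in PRH-labelled tumours (difference 0.82, SE 0.461, adjusted p = 0.226). In both genes control 1 again lay among the PRH-labelled tumours, and control 3 was the lowest value. Hbb-bs and Hbb-bt, the adult beta genes of the single haplotype, differed by 0.97 (adjusted p = 0.17) and 0.46 (adjusted p = 0.48), and the sign of Hbb-bt turned after median centring (-0.01) and without scaling (-0.13). Alpha copies, and beta copies, are close to identical in sequence, so how their signal divides between copies is uncertain. Which beta haplotype these mice carry was not examined, so a probe named for 1 beta gene may read another.

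Alpha and beta moved as a pair. The mean log2 level of the adult alpha probes minus that of the adult beta probes was 3.18, 3.07, 2.98 and 3.21 in control 1, 2, 3 and 5 and 3.06, 3.42, 3.27 and 3.00 in PRH 1, 2, 3 and 5. That gap compares probes of different genes, so its size carries no ratio of alpha to beta RNA, but its spread over arrays was small against the range of 2.31 that Hba-a1 itself covered. Globin probes of all loci together made up 0.104%, 0.0575%, 0.0265% and 0.0366% of the summed array signal in control and 0.0955%, 0.066%, 0.0459% and 0.111% in PRH-labelled tumours. The means of 0.05625% ± 0.0346 and 0.07967% ± 0.0293 (SD, n = 4 each) differed by less than 1 SD of either group.

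Of the 10 tested globins 3 passed, all higher in PRH-labelled tumours, where 10.6% of named genes passed higher. They were Hbb-y, an embryonic beta-like gene, and Hbq1a and Hbq1b, the theta globin genes. Hbb-y stood at -2.76, -3.66, -3.67 and -3.41 in control and at -1.98, -2.36, -1.90 and -1.92 in PRH-labelled tumours, a rise of 1.34 (SE 0.236, limma adjusted p = 0.00873). Hbq1b stood at -2.69, -3.67, -3.54 and -3.35 against -1.95, -2.32, -2.16 and -2.31, a rise of 1.13 (SE 0.230, adjusted p = 0.0125). In both genes control 1 was the highest control and still lay below every PRH-labelled tumour. Hbq1a differed by 2.19 (SE 0.442, adjusted p = 0.0121). Its probe was well above background on 1 of 4 control arrays and on all 4 PRH-labelled ones, so it entered the test mainly through the group where it is high, and its call carries little. The calls of Hbb-y and Hbq1b held in the 5 scalings, with the mouse number as a block and without any 1 array. Neither held after centring on spike-in probes, and that of Hbq1b was lost without scaling too (0.53, adjusted p = 0.0707). These were dim probes, however, and items of the same brightness had a median difference of 0.63 (Hbb-y and Hbq1b) and 0.91 (Hbq1a) in the same direction. Of those items 20.9% and 21.4% passed higher.

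The other embryonic genes did not pass. Hbb-bh1 differed by 0.75 (SE 0.630, limma adjusted p = 0.406), with PRH 3 at -3.07 below every control. Hbb-bh2 ran at -4.80, -3.19, -5.64 and -2.72 in control and at -4.41, -1.90, -4.22 and -1.43 in PRH-labelled tumours, with mouse numbers 1 and 3 low and 2 and 5 high in both groups. Its difference of 1.10 (adjusted p = 0.402) passed with the mouse number as a block (adjusted p = 0.0198). With the block 4 of the 10 tested globins thus passed higher, against 15% of named genes. Hba-x, the embryonic alpha-like gene, was not well above background on any control array and was so on 3 PRH-labelled ones. Its groups overlapped, with PRH 3 at -7.64 and control 2 at -7.02. The dimmest tested items had a median difference of 0.91 in the same direction. Its mean is bounded at least 1.59-fold higher in PRH-labelled tumours, but it counts only through those arrays, so the bound carries little. For such a bound the mean of the bright group is divided by that of the dim group, after raising each dim value to the weakest signal that counted as well above background on its array, where it lay below that. The second probe of Hbb-y lay too near background on all 8 arrays to count as well above it.

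Outside the red cell loci, myoglobin (Mb) and cytoglobin (Cygb), which bind oxygen in other tissues, differed by 0.79 (adjusted p = 0.329) and -0.11 (adjusted p = 0.833), and neither passed.

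**Figure D2:**
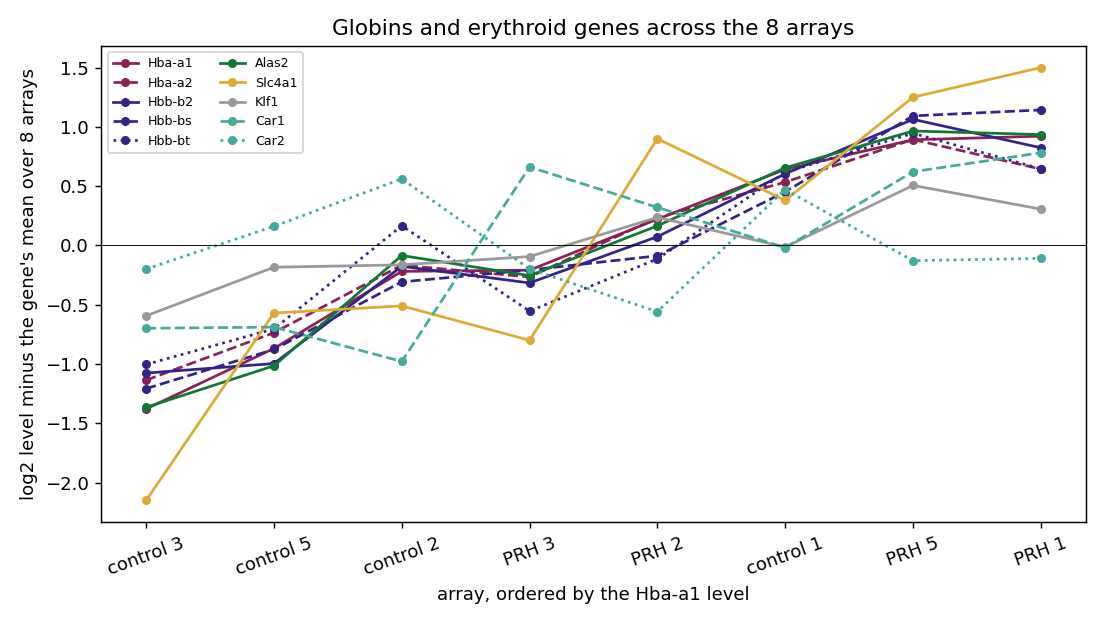
Log2 level of 10 globin and erythroid genes minus each gene's own mean over the 8 arrays (vertical axis), with the arrays ordered by the Hba-a1 level (horizontal axis). The adult globins and Alas2 climb together from control 3 to PRH 1 and PRH 5, with control 1 next to these, while Car1 and Car2 leave that order.

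Alas2, whose enzyme is specific to erythroid cells, was the gene closest to the globins. It stood at 0.16, -0.58, -1.86 and -1.51 in control 1, 2, 3 and 5 and at 0.44, -0.33, -0.75 and 0.47 in PRH 1, 2, 3 and 5. PRH 5, PRH 1 and control 1 were high and control 3 and control 5 were low, so the groups overlapped. The means were -0.95 ± 0.92 and -0.04 ± 0.60 (SD, n = 4 each) and the difference was 0.91 (SE 0.494, limma adjusted p = 0.215). Within mouse numbers 1, 2, 3 and 5 it was 0.29, 0.25, 1.12 and 1.98, and with the block the adjusted p was 0.0917.

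Genes of haem synthesis and of mitochondrial haem or iron transport were read beside Alas2. Of the 16 on the list, all tested, none passed higher and 5 passed lower by their brightest probe, where 12.9% of named genes passed lower, and the median difference was -0.14 against -0.02 over named genes. Slc25a37, the mitochondrial iron importer, differed by -0.27 (limma adjusted p = 0.32), but its other probe passed higher (0.97, adjusted p = 0.0339). Abcb10, which stabilises the mitochondrial iron importer of erythroid cells, fell by 1.06 (limma adjusted p = 0.0106), with control 1 at 0.04 below the other controls. Tmem14c, a mitochondrial porphyrin transporter, fell by 0.87 (adjusted p = 0.00768), and Uros, an enzyme of the middle of the pathway, by 0.75 (adjusted p = 0.00881). Snx3, a sorting protein of transferrin receptor recycling, fell by 0.70 (adjusted p = 0.0237), a call that leaving out 1 array ended in 6 of 8 cases, the highest adjusted p being 0.0678 (control 5 left out). Alas1, the form of the first enzyme used in all tissues, differed by -0.25 (adjusted p = 0.313), with its other probe at 1.16 (adjusted p = 0.147). Fech, which inserts the iron, differed by 0.39 (adjusted p = 0.0615), and its sign turned in 1 of the 5 scalings.

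Slc4a1, the band 3 exchanger and a main protein of the red cell membrane, covered 3.65 log2 units over the 8 tumours, the widest range of the 6 genes. It stood at -1.23, -2.12, -3.76 and -2.18 in control 1, 2, 3 and 5 and at -0.11, -0.71, -2.41 and -0.36 in PRH 1, 2, 3 and 5. The lowest tumour of each group was that of mouse number 3, and PRH 3 lay below 3 of the 4 controls. The means were -2.32 ± 1.05 and -0.90 ± 1.04 (SD, n = 4 each), and the difference of 1.42 (SE 0.662, limma adjusted p = 0.156) did not pass in a model with the group alone. Within mouse numbers 1, 2, 3 and 5 it was 1.12, 1.41, 1.34 and 1.81, and once the mouse number was blocked it passed (adjusted p = 0.0097). The raw signals, 428, 295, 79.9 and 223 in control and 628, 464, 130 and 586 in PRH-labelled tumours, differed in the same direction by 0.83 on the log2 scale without scaling.

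Red cell membrane and skeleton genes showed 2 higher and 2 lower calls among 19 tested of 26 listed, where 10.6% and 12.9% of named genes passed higher and lower. Aqp1, the water channel of red cells and of capillary endothelium, stood at 2.76, 2.52, 3.1 and 2.10 in control and at 0.31, 0.91, 0.75 and 0.83 in PRH-labelled tumours and fell by 1.92 (limma adjusted p = 0.00686). Tmod3, an actin capping protein found in many cells, fell by 0.73 (adjusted p = 0.0245), which was lost for 6 of the 8 arrays left out (0.0691 at most, for control 5). Dmtn, the actin bundler dematin, rose by 1.14 (adjusted p = 0.00889), lost after median centring (0.68, adjusted p = 0.0548) and without scaling (0.55, adjusted p = 0.103). Kel, a blood group antigen, passed (adjusted p = 0.0134) and was not well above background on any control array, which bounds it at least 2-fold higher in PRH-labelled tumours. It entered the test only through the PRH-labelled arrays, where it is high, so its call here and among the erythroid markers carries little. Rhag, Rhd and Tmod1 were not well above background on any array.

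Some genes more restricted to erythroid cells, picked after their values were seen, passed with the block alone. Tspo2, a membrane protein of late erythroid cells, stood at 0.92, 0.21, -1.72 and 0.52 in control and at 1.63, 1.24, -1.03 and 1.55 in PRH-labelled tumours (limma adjusted p = 0.429, and 0.0125 with the block). Cldn13 stood at -3.15, -4.68, -6.44 and -4.14 against -2.65, -2.73, -5.22 and -2.47 (adjusted p = 0.278, and 0.0209 with the block). In both, mouse number 3 was lowest in each group and every PRH-labelled tumour lay above the control of its number. Icam4 and Ermap, surface proteins of red cells, also passed with the block (adjusted p = 0.0195 and 0.0255, against 0.164 and 0.069 without), but the other probe of Ermap was lower and passed without it (-0.54, adjusted p = 0.0195). Icam4 and Cldn13 were dim, each well above background on 3 of 4 control arrays. Items of their brightness had median differences of 0.91 and 0.69. The difference of Icam4, 0.64, became -0.03 in the authors' values and 0.03 after quantile normalization. Other erythroid markers were not lowest for mouse number 3 in both groups: Trim10 differed by -0.33 (adjusted p = 0.55) with PRH 3 lowest but control 3 not, and in Kel, PRH 3 was next to the highest tumour. With the block 6 of the 19 membrane genes passed higher and 2 lower, against 15% and 12.4% of named genes. Ank1 and Sptb, the ankyrin and beta spectrin of the red cell skeleton, differed by 0.70 (adjusted p = 0.426) and 0.09 (adjusted p = 0.911), and the sign of Sptb turned in 3 of the 5 scalings.

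Klf1 gave dim signals, 32.7 to 52.2 in control and 29.6 to 48.7 in PRH-labelled tumours, yet was well above background on all 8 arrays. It stood at -4.47, -4.62, -5.05 and -4.64 in control 1, 2, 3 and 5 and at -4.15, -4.22, -4.55 and -3.95 in PRH 1, 2, 3 and 5. Only PRH 3 fell inside the range of the controls. The means were -4.69 ± 0.25 and -4.22 ± 0.25 (SD, n = 4 each), with a difference of 0.47 (SE 0.187, limma adjusted p = 0.103) that passed with the block (adjusted p = 0.0497). Items of the same brightness had a median difference of 0.75, larger than that of Klf1, and the sign of Klf1 turned in the authors' values (-0.12), after quantile normalization (-0.09) and without scaling (-0.12).

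Other regulators of erythroid genes were read beside Klf1. Among 23 tested of 24 listed regulators, 4 passed higher and 1 lower (10.6% and 12.9% among named genes), and the median difference was 0.07. Gata1, the main GATA factor of red cell precursors, differed by -0.17 (limma adjusted p = 0.777), Tal1, its complex partner, by 0.11 (adjusted p = 0.654), and the signs of these turned in 1 and 3 of the 5 scalings. Epor, the erythropoietin receptor, ran at -1.66, -2.71, -3.68 and -3.10 in control and at -2.38, -0.98, -0.81 and -2.17 in PRH-labelled tumours (difference 1.20, adjusted p = 0.135), with PRH 3 at the top and not at the bottom. The genes that passed higher are also used by many other cells: Jak2, a cytokine receptor kinase (0.94, adjusted p = 0.00904), Runx1, a blood transcription factor (0.67, adjusted p = 0.0144, with another probe at -0.51), Foxo3, a stress response factor (0.83, adjusted p = 0.0227), and Kitl, the ligand of the Kit receptor (0.83, adjusted p = 0.0285). After median centring none of the 4 passed (adjusted p 0.153, 0.388, 0.151 and 0.33), nor without scaling. Foxo3 and Kitl also lost the call in the authors' values (0.0582 and 0.12), after quantile normalization (0.0873 and 0.0777) and for 5 and 4 of the 8 arrays left out (adjusted p at most 0.063, for control 2, and 0.0667, for PRH 2). Klf3, a repressor of the Klf family, fell by 0.44 (adjusted p = 0.0349) and did not pass with the block (adjusted p = 0.0688), after quantile normalization (0.0716) or for 5 of the 8 arrays left out (0.0981 at most, for control 5).

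Car1 was the gene of the 6 that separated the groups. The carbonic anhydrase encoded by it is abundant in red cells and in colon epithelium. Its probe stood at -0.89, -1.85, -1.57 and -1.56 in control 1, 2, 3 and 5 and at -0.09, -0.55, -0.21 and -0.25 in PRH 1, 2, 3 and 5. Control 1 was the highest control and lay below the lowest PRH-labelled tumour, PRH 2. From means of -1.47 ± 0.41 and -0.27 ± 0.20 (SD, n = 4 each) Car1 rose by 1.20 (SE 0.225, 2.29-fold, limma adjusted p = 0.00999). The rise was 0.81, 1.30, 1.37 and 1.31 within mouse numbers 1, 2, 3 and 5. It passed in all 5 scalings, with the block (adjusted p = 0.00979), without scaling (0.60, adjusted p = 0.0437) and without any 1 array (adjusted p up to 0.0331), but not after centring on spike-in probes (1.07, adjusted p = 0.134), under which 1 of all 34543 items passed. Items of the same brightness had a median difference of 0.31. The second probe of Car1 was not well above background on any control array and was so on 2 PRH-labelled ones. Its groups overlapped, with PRH 2 at -7.25 and PRH 5 at -6.38 below control 3 at -5.49. Its mean is bounded at least 1.55-fold higher in PRH-labelled tumours, but it counts only through those arrays. The dimmest tested items had a median difference of 0.91 in the same direction, so the bound carries little.

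Car2, the carbonic anhydrase of red cells that is also found in osteoclasts, kidney and many epithelia, stood at -0.58, -0.49, -1.25 and -0.89 in control 1, 2, 3 and 5 and at -1.16, -1.61, -1.25 and -1.18 in PRH 1, 2, 3 and 5. Control 3 lay with the PRH-labelled tumours and the other controls lay above them. The means were -0.80 ± 0.35 and -1.30 ± 0.21 (SD, n = 4 each), a difference of -0.50 (SE 0.208, limma adjusted p = 0.118) and the only negative one of the 6. Car2 passed lower without control 3 (-0.65, adjusted p = 0.0477), after median centring (-0.96, adjusted p = 0.0172), after quantile normalization (-0.72, adjusted p = 0.0289) and without scaling (-1.09, adjusted p = 0.0124). Osteoclast markers, read beside it because osteoclasts express Car2, had no call among 5 tested (10.6% higher and 12.9% lower among named genes). Their summed levels were 33.9 to 37.3 in control and 34.6 to 46.2 in PRH-labelled tumours.

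Among 13 tested carbonic anhydrase genes Car1 was the only one that passed, where 10.6% of named genes passed higher and 12.9% lower. Car4, a membrane-bound form, differed by 0.46 (adjusted p = 0.198), and Car9, the form induced by low oxygen, by 0.27 (adjusted p = 0.549), and each sign turned in 1 of the 5 scalings. Among 9 tested bicarbonate transporters of the Slc4 family 2 passed higher (10.6% among named genes), Slc4a3 by 0.99 (limma adjusted p = 0.0149) and Slc4a2 by 0.55 (adjusted p = 0.0368). These are the anion exchangers of other tissues. Neither passed after median centring (adjusted p = 0.102 and 0.731) or without scaling (0.265 and 0.888). Slc4a2 lost the call for 6 of the 8 arrays left out (adjusted p at most 0.0987, for control 5), and with the block Slc4a1 joined them.

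**Figure D3:**
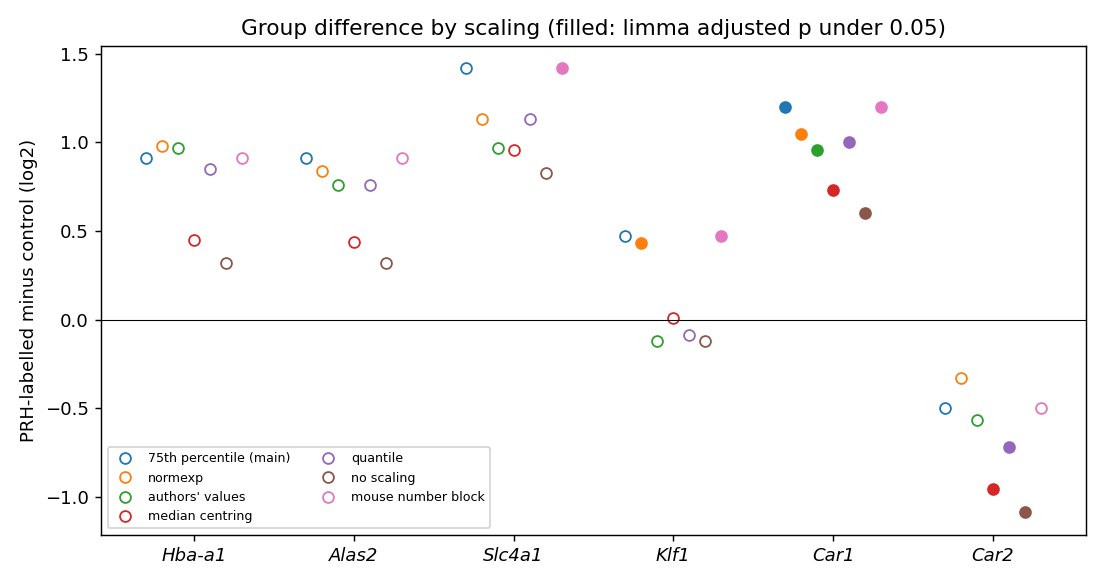
Difference in log2 level, PRH-labelled minus control (vertical axis), of the 6 erythroid genes under 5 scalings of the arrays, without scaling and when the mouse number was a block. A filled point passed at a limma adjusted p under 0.05. Car1 lies above 0 and passed in all 7 settings shown, Car2 lies below 0 in all of them, and Klf1 changes sign.

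The scaling moved the differences, by unequal amounts from gene to gene. The median difference over all items was 0.29 here, 0.33 with normexp background correction, 0.06 in the authors' values and after quantile normalization, -0.18 after median centring and -0.31 without scaling. Relative to that median, Car1, Slc4a1, Alas2 and Hba-a1 lay above and Car2 below in each of these.

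Alas2, Hba-a2 and Hbb-b2 placed the 8 tumours in the same order. It ran from PRH 5 through PRH 1, control 1, PRH 2, control 2, PRH 3 and control 5 to control 3. Neighbours in that order often lay close, with PRH 5 and PRH 1 at 0.47 and 0.44 for Alas2. Hba-a1 and Hbb-bs, which shared an order, and Hbb-bt differed from it in adjacent places only, while Car1, Car2, Slc4a1, Klf1 and the embryonic and theta globins had orders of their own. Inside the groups Slc4a1 varied with an SD of 1.05, larger than that of 89.8% of named genes, Alas2 with 0.77 (84.5%) and Hba-a1 with 0.73 (83.5%), where the median gene had 0.28. Car1 (0.32), Car2 (0.29) and Klf1 (0.25) varied about as much as that median gene.

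The level of Hba-a1 was set against the other 5 genes over the 8 arrays, 5 relations in all with exact two-sided permutation p-values adjusted over them. The permutations exchanged all 8 arrays freely and took no account of group or of shared mouse number, which the p-values therefore ignore. Alas2 followed it most closely, with Pearson r = 0.996 (p = 9.92e-05, adjusted p = 0.000496) and Spearman rho = 0.952 (p = 0.00114, adjusted p = 0.00285). Without the 2 arrays farthest from the median, control 3 and PRH 1, r was 0.993 (permutation adjusted p = 0.0139), and on deviations from the group means it was 0.994. Slc4a1 followed Hba-a1 with r = 0.931 (p = 0.00104, adjusted p = 0.0026) and rho = 0.905 (adjusted p = 0.0076), and Klf1 with r = 0.905 (p = 0.00186, adjusted p = 0.0031) and rho = 0.952 (adjusted p = 0.00285). Without those 2 arrays r was 0.83 for Slc4a1 and 0.793 for Klf1 (permutation adjusted p = 0.0903 each), so that neither passed without those arrays. On deviations they were 0.893 and 0.864. That of Klf1 was 0.68 after median centring and 0.379 after quantile normalization (adjusted p = 0.109 and 0.45).

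Car2 had r = 0.0132 with Hba-a1 (permutation p = 0.973, rho = 0.0714) over the 8 arrays, and -0.128 without the 2 farthest. On deviations from the group means, with no test, r was 0.746. Car1 fell into separate groups, so no pooled value is given for it, and on deviations r was 0.564. All these levels share the scaling of their array.

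**Figure D4:**
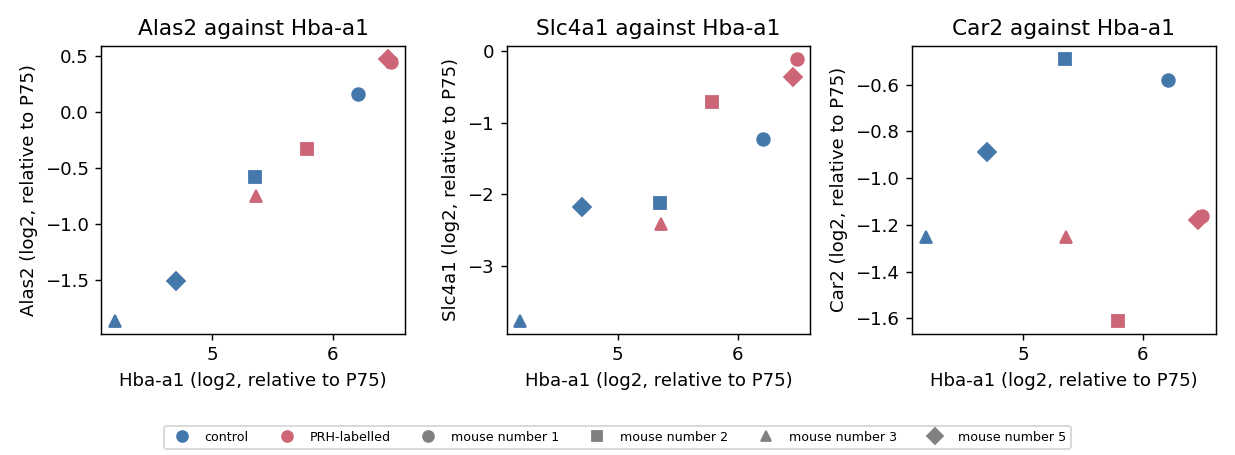
Log2 levels of Alas2, Slc4a1 and Car2 (vertical axes) against that of Hba-a1 (horizontal axes) in the 8 tumours, each level relative to the 75th percentile (P75) of its array. Colour gives the group and shape the mouse number. Alas2 lies along a line with both groups mixed on it, Slc4a1 follows with more spread, and the Car2 points form no such line.

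The genes most like Hba-a1 over the 8 arrays, among the 16362 named genes that are neither members nor on a globin locus, were Gfra1 (r = 0.973), Mks1 (0.966), Lyst (0.959), Terb2 (0.957) and Prss57 (0.955). The genes most like Alas2 were Mks1 (0.971), Gfra1 (0.964), Efcab12 (0.948), Lyst (0.948) and Clic5 (0.947). Gfra1, a receptor subunit for glial-derived growth factor, ran from -4.67 in control 3 to -3.07 in PRH 5, and Mks1, a ciliary protein, from -2.07 to -1.16 in the same tumours. These genes were picked for their likeness out of many, so the values carry no test.

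Red cell enzymes gave 3 higher calls and no lower one among 16 tested (10.6% and 12.9% among named genes), and none of the 3 held after median centring or without scaling. Prdx2, the peroxide scavenger that is among the most abundant proteins of red cells and occurs in most other cells, stood at 5.63, 5.63, 5.67 and 5.46 in control and at 6.12, 6.14, 6.29 and 6.21 in PRH-labelled tumours and rose by 0.59 (limma adjusted p = 0.0112). Without scaling its difference was 0. Its level did not have the tumour order of the globins, with control 3 the highest control. Cat, catalase, rose by 0.98 (adjusted p = 0.0244) while its other probe was lower by 0.79 and passed too (-0.79, adjusted p = 0.0195). Isg20, an exonuclease, rose by 0.63 (adjusted p = 0.0339), and Cat and Isg20 each lost the call for 7 of the 8 arrays left out (adjusted p at most 0.0673, for control 2, and 0.0877, for PRH 2). With the block 5 of the 16 passed higher, against 15% of named genes, with Tspo2 and Pklr (the red cell pyruvate kinase, adjusted p = 0.0367) added. The probe of Pklr was well above background on 1 of 4 control arrays and on all 4 PRH-labelled ones. It entered the test mainly through the group where it is high, so its call carries little.

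Of the iron handling genes, 4 of 12 tested passed lower and none higher, where 12.9% and 10.6% of named genes did. Tfrc, the transferrin receptor through which erythroid precursors and dividing cells take up iron, stood at 0.00, 0.02, 0.30 and 0.32 in control and at -0.34, -0.47, -0.84 and -0.47 in PRH-labelled tumours and fell by 0.69 (limma adjusted p = 0.0185, and 0.0559 without control 5). Ireb2, an iron-regulatory RNA-binding protein, fell by 1.04 (adjusted p = 0.00922), Hfe, a partner of the transferrin receptor, by 0.82 (adjusted p = 0.0117), and Slc11a2, an iron transporter, by 0.78 (adjusted p = 0.0284, lost for 7 of the 8 arrays left out, 0.0737 at most, for control 2). Steap3, an erythroid ferrireductase, differed by 0.83 (adjusted p = 0.0871) and passed with the block (adjusted p = 0.0133), but its other probe differed by -0.1 (adjusted p = 0.73 without the block).

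The list of erythroid cell markers had 9 of 14 genes tested, 1 higher (Kel) and 1 lower (Tfrc), with a median difference of 0.71 against -0.02 over named genes, of which 10.6% passed higher and 12.9% lower. With the block 5 passed higher and 1 lower, against 15% and 12.4% of named genes. Kel, Icam4 and Trim10 were among the dimmest tested items, whose median difference was 0.91. Items as dim as Gata1, Cldn13 and Epor had medians of 0.75, 0.69 and 0.50. Of such dim items 17.9% to 21.4% passed higher. Items as bright as Ermap, Tspo2 and Tfrc had medians of -0.14, -0.14 and -0.03. The 0.71 thus cannot be read against -0.02 alone. The summed level of the list (the array's 75th percentile being 1) was 5.35, 3.60, 2.78 and 4.45 in control 1, 2, 3 and 5 and 6.86, 6.13, 3.35 and 6.88 in PRH 1, 2, 3 and 5, lowest for mouse number 3 in both groups. The sum adds linear levels, so its brightest genes, Ermap, Tspo2 and Tfrc, weigh most in it. Ermap and Tspo2 were already described above as low for mouse number 3, while in Epor PRH 3 was the highest tumour. Markers of other cells differed between tumours too. Control 3, the tumour lowest in adult globins, had a neutrophil marker sum of 60.3 against 209 to 294 elsewhere and an endothelial sum of 21.3 against 40.2 to 65.4. Control 1, the control highest in globins, had an adipocyte sum of 110 against 3.45 to 13.4 elsewhere and a B cell sum of 34.3 against 2.43 to 3.81. The part of these other cell types in the erythroid values was not tested. Without control 1 and without control 3 the Hba-a1 and Car2 values change as given above.

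**Figure D5:**
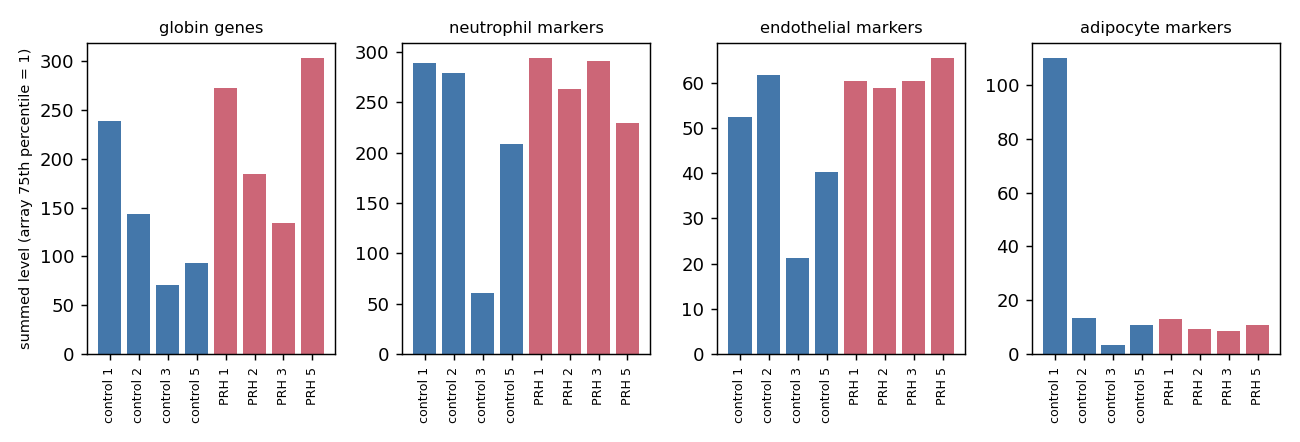
Summed linear level (vertical axis, the array's 75th percentile being 1) of the globin, neutrophil, endothelial and adipocyte gene lists in the 8 arrays (horizontal axis), blue for control and red for PRH-labelled, 1 bar per array. Control 3 is lowest in all 4 panels, and control 1 stands apart in the adipocyte panel at 110.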

How the data were processed

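RNA of 4 control and 4 PRH-labelled 4T1 tumours was measured on 1-colour arrays. The deposited spot values are linear intensities, background-corrected by the scanner software. Per the file headers this was Agilent Feature Extraction 10.7.3.1, while the submitters' processing notes name version 9.1. A table of the authors' normalized intensities was deposited too and served as an alternative. How the authors normalized it is given only as R, per the labels.

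Levels are log2 processed signals from which the 75th percentile of each array, over 59305 non-control spots, was subtracted, with spots of a probe averaged. No spot was saturated. A probe was tested if well above background on at least 4 of 8 arrays (39463 probes), and the brightest probe stood for a gene, which left 34543 items. The files give no gene symbols. Accessions in the files were matched to RefSeq's table, which named 26582 probes. The 2 groups were tested in R 4.3.3 with limma 3.58.1 (two-sided, Benjamini-Hochberg over all items, threshold 0.05). The number of arrays limits the precision, and p-values rest on the spread among these 8 tumours alone. The 5 scalings were the 75th percentile, normexp background correction (offset 50), the authors' values, median centring and quantile normalization. Spike-in centring (7 probes), filters, the mean of a gene's probes, the mouse number block and leaving out each array were tried as well. Leaving the values unscaled was added after the data had been seen. Normexp used the median signal, since the mean signal planned for it was not used here. The globin level was planned as the mean of Hba-a1 and Hbb-b1 and is Hba-a1 alone. The code was tested on simulated data.

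Same-numbered arrays deviated together from their group means (r = 0.2, 0.422, 0.651 and 0.257 for mouse numbers 1, 2, 3 and 5, each above 0.1). Of the 8 arrays, 6 were closest to the array sharing their number. The numbers, given in the sample titles, are also slide rows, and mouse number and slide row cannot be told apart. These values therefore do not show that the numbers pair the samples, and the block may carry either. Members and gene lists were chosen with earlier results of these data known. Named genes are the tested members, Hhex and up to 4 genes with the smallest p of each list, 84 in all. Of these 37 passed, a count raised by the choice of genes with a small p. The 5 genes most like Hba-a1 and the 5 most like Alas2 are named in the text too and are not among the 84. Over all 16377 tested genes with a name, 10.6% passed higher and 12.9% lower. Other list genes named in the text were chosen after their values were seen. Some single-gene results counted within the lists are not reported here.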

Additional observations from a re-analysis of the deposited data

Results flagged for a closer look

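In each group of 4 arrays, the highest and the lowest value of a named gene was set against its nearest neighbour and the range of the group (Dixon's ratio, 95% critical value). Of 178 groups examined 13 exceeded it, where chance gives about 1 in 20, so most of these can be chance and none is explained here.

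Among the erythroid genes, PRH 5 stood apart for Hbq1a (-4.3), PRH 3 for Hbb-bh1 (-3.07), control 1 for Abcb10 (0.04), Kel (-5.96) and Slc4a2 (2.87), control 3 for Pklr (-3.1, where the next control was at -7.26), and PRH 1 for Runx1 (2.48). Among markers of other cells, control 1 stood apart for the B cell gene Cd79b (4.07, where the next control was at -1.67), control 3 for the epithelial gene Cldn7 (3.21), PRH 3 for the platelet gene Gp1bb (-1.51) and the B cell gene Cr2 (-0.66), PRH 5 for the adipocyte gene Fabp4 (3.01) and PRH 1 for the pericyte and fibroblast gene Pdgfrb (0.78). All are log2 levels relative to the array's 75th percentile.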

How the results depend on the processing

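Of the 6 members 1 passed in the reported fit, 2 with normexp, median centring, quantile normalization or no scaling, 0 with spike-in centring, 3 with the replicate block (mouse number), and 1 to 2 without 1 array. Over all items 8934 passed in the reported fit, 1 with spike-in centring, and 5733 (without PRH 1) to 11467 (without control 1) when 1 array was left out. The higher and lower calls, 5938 and 2996 as reported, became 9024 and 3214 with normexp, 3666 and 4392 in the authors' values, 4144 and 4649 with quantile normalization, 2926 and 7612 with median centring, and 2058 and 10193 without scaling, a setting added after seeing the data. Of the other globin probes 3 passed (Hbb-y, Hbq1a and Hbq1b), 2 without scaling or with probes well above background on all 8 arrays, and 0 with spike-in centring. Of the list genes 38 passed (21 higher, 17 lower), 0 with spike-in centring, 61 without scaling (5 higher, 56 lower), 43 with median centring (7 higher, 36 lower), and 22 to 50 without 1 array. The difference in globin share, 0.0234 percentage points, became 1 on the log2 scale as the median of the globin probes, which is another unit. The correlations of Hba-a1 with Slc4a1 and Klf1 fell to 0.83 and 0.793 without 2 arrays, and that with Klf1 to 0.68 and 0.379 under median centring and quantile normalization. Without scaling the differences of Prdx2, Slc4a2 and Krt18 were 0, -0.04 and -0.07, in place of 0.59, 0.55 and 0.52. The cause of these changes was not tested. Over the 84 named genes the alternatives gave 1286 values on the same side of the threshold, 46 that newly passed, 172 that no longer did and 3 that turned. Dim probes such as Klf1, Hbq1a, Kel and Hba-x are limited by signal over background.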

Other observations

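Genes that bind or break down free haemoglobin and haem were read as a further list, and none of 11 tested passed in either direction (limma). Among named genes 10.6% passed higher and 12.9% lower. Hmox1, the haem oxygenase induced by haem and stress, stood at 2.52, 3.49, 2.83 and 3.20 in control 1, 2, 3 and 5 and at 3.58, 3.44, 3.44 and 3.63 in PRH 1, 2, 3 and 5 (difference 0.51, limma adjusted p = 0.125, with its other probe at 0.68 and adjusted p = 0.0171). Hp, the plasma haptoglobin that binds free haemoglobin and is made by liver and fat, stood at 6.22, 1.82, 0.00 and 2.19 in control and at 3.01, 2.62, 2.47 and 2.13 in PRH-labelled tumours. Control 1 was the highest tumour and control 3 the lowest, and the group means were 2.56 each.

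Platelets, the other blood cells without a nucleus, share their precursor with red cells. Of 13 tested platelet and megakaryocyte markers 2 were higher and 1 was lower past the threshold, where 10.6% and 12.9% of named genes were. Treml1, a protein of platelet granules, differed by 0.87 (limma adjusted p = 0.0474), a call lost with the block (0.0525), in the authors' values (0.542), after median centring (0.31) and quantile normalization (0.318), and for 7 of the 8 arrays left out (0.111 at most, for PRH 5). P2ry12, a receptor for ADP on platelets and microglia, fell by 1.41 (adjusted p = 0.00686).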
